A study of Mus musculus with 30 samples.

Results

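Gata1, Nfe2, Zfpm1, Epor and Slc4a1, 5 genes of red cell formation, were taken by gene symbol from a table of 14685 genes measured by RNA sequencing. All 5 were in the table and all 5 reached 1 FPKM in at least 1 sample, the level a gene needed to be tested (14525 genes). FPKM (fragments per kilobase of transcript, scaled to the total of mapped reads) is a level per length of transcript, so levels of different genes can be compared. RNA came from 5 populations formed as mouse ESC of the E14 line differentiate into blood: ESC, Flk1 cells purified from embryoid bodies, and 3 populations sorted from blast culture at day 2. All 3 were KIT+. Within haemogenic endothelium (HE), which carried Tie2, HE1 was the CD41- fraction and HE2 the CD41+ fraction, while progenitor cells were CD41+ without Tie2. Each population was taken from WT, Sp1_deltaDBD and Sp3KO cells with 2 replicates, giving 15 groups and 30 samples. All groups share the E14 background. Sp1_deltaDBD cells had lost the DNA-binding domain of the transcription factor SP1 but kept the rest of the gene, and Sp3KO cells lacked its relative SP3. Each genotype was a line of its own, so the effect of a mutation and any other difference between lines cannot be told apart.

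Red cell formation is run by a small set of transcription factors. GATA1 binds GATA motifs and turns on genes of red cells and megakaryocytes, Zfpm1 encodes FOG1, the zinc finger partner that GATA1 needs at many of these genes, and Nfe2 encodes the large subunit of NF-E2, which binds globin control regions and platelet genes. Epor encodes the receptor for erythropoietin, the hormone that keeps red cell precursors alive, and signals through JAK2 and STAT5. Slc4a1 encodes band 3, the anion exchanger that ties the red cell membrane to its skeleton and appears late in maturation. SP1 and SP3 bind GC boxes and related GC-rich elements in many promoters.

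In mm10, Gata1 lies at chrX:7959260-7978071 on the minus strand, Nfe2 at chr15:103248212-103258403 on the minus strand and Zfpm1 at chr8:122282141-122337251 on the plus strand. Epor lies at chr9:21958897-21963506 and Slc4a1 at chr11:102348824-102366203, both on the minus strand. RefSeq promoter sequences (GRCm38.p6) were at hand for Gata1, Zfpm1 and Epor. They are shown because SP1 and SP3 act through promoter elements of these kinds. Each runs 5′ to 3′ on the strand of the gene over the 250 bases before the annotated start, at chrX:7967911-7968160 (minus strand) for Gata1, chr8:122281891-122282140 (plus strand) for Zfpm1 and chr9:21963577-21963826 (minus strand) for Epor. Capitals mark 3 kinds of motif, each searched on both strands. A GC box reads GGGCGG. The CACCC element, bound by KLF and SP factors, was searched by the letters of its name. The letters taken as a GATA motif were AGATAA, with AGATAG in the same class, and likewise those that begin with T in place of A, which are TGATAA and also TGATAG. The windows read as follows.
Gata1: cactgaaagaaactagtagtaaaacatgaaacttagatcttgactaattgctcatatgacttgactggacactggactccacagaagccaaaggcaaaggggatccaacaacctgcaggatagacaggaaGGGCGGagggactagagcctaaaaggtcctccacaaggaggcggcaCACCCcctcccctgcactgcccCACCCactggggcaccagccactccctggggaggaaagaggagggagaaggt
Zfpm1: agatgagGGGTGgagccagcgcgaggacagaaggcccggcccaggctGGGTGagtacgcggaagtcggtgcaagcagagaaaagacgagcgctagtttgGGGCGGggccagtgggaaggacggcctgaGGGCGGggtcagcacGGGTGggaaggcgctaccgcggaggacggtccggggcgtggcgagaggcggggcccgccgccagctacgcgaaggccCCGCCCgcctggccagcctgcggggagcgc
Epor: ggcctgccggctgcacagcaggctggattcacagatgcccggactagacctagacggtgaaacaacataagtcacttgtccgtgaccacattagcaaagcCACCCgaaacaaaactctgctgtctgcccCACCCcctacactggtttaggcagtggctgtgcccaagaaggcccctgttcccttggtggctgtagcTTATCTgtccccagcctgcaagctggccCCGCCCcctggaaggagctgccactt
No base belonged to more than 1 of these motifs. The Zfpm1 window was the richest in G and C, at 73.2% against a median of 52.4% over 32841 RefSeq promoter windows of the same length, and it held 3 GC boxes and 3 CACCC elements. The Gata1 window (54% G and C) held 1 GC box at positions -120 to -115 from the start and 2 CACCC elements with no GATA match, and its RefSeq start lies inside the gene span given above. The Epor window (58.8% G and C) held 1 GC box at positions -26 to -21 from the start, 2 CACCC elements and 1 GATA motif at -54 to -49. GC boxes were found in 32.7% of all windows, CACCC elements in 52% and GATA motifs in 26.5%, and a match describes letters and not binding.

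The samples carried the features of their labels at the RNA level. Sp3 was at 25.9 to 58.1 FPKM in WT and at 3.38 to 7.79 FPKM in the Sp3KO samples, so some signal over the gene remained. Sp1 was at 14.8 to 40.5 FPKM in Sp1_deltaDBD and at 24.9 to 52.4 FPKM in WT samples, which does not test the deletion, since the transcript outside it is kept. Within populations, Sp1 was lower than WT in Sp1_deltaDBD Flk1, HE2 and progenitors (limma adjusted p = 0.0311, 0.0404 and 0.00788) and did not pass in ESC or HE1. Sp3 was higher in Sp1_deltaDBD HE1 (log2 difference 0.71, limma adjusted p = 0.021) and did not pass in its other populations. Kdr, which encodes FLK1, was at 165 to 257 FPKM in Flk1 cells and at most 0.322 FPKM in ESC. Tek, which encodes Tie2, fell from 135 to 234 FPKM in HE1 to 5.95 to 17.5 FPKM in progenitors. Itga2b (CD41) was present in HE1 too (34.8 to 83.3 FPKM), although the gate took CD41- cells. Markers of other cell types also moved between samples. The summed level of 5 cardiac and smooth muscle markers was 356 FPKM or less in the HE1 samples except replicate 1 of WT (1697 FPKM) and of Sp1_deltaDBD (997 FPKM). The summed level of 8 myeloid markers reached 49.2 to 146 FPKM in progenitors, and that of 11 megakaryocyte markers 230 to 440 FPKM. Their part in the results was not tested. In sorted bulk samples, fewer cells of a type and less RNA per cell cannot be told apart.

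In WT cells all 5 genes had their highest mean in progenitors. Nfe2, Zfpm1 and Epor rose already from ESC to Flk1, Zfpm1 by the most. The 2 ESC samples were at 1.03 and 0.318 FPKM and the Flk1 samples at 35.3 and 36.8. HE1 samples were at 52.9 and 57.5 FPKM, those of HE2 at 43 and 48.3, and progenitors at 115 and 83.5. All 8 samples after ESC were far above both ESC samples, and the Flk1, HE1 and HE2 samples lay between 35.3 and 57.5 FPKM. The step from ESC to Flk1 was 52.6-fold (log2 difference 5.72 ± 0.41 SE, limma adjusted p = 1.03e-09), and the later difference between HE2 and progenitors, 1.10 ± 0.41 on the log2 scale, did not pass (limma adjusted p = 0.0851).

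Nfe2 rose at each step except that from Flk1 to HE1. WT ESC held 1.05 and 1.01 FPKM, Flk1 cells 3.50 and 3.47 and HE1 cells 2.26 and 3.51. The level was 42.5 and 37.7 FPKM at HE2, then 107 and 142 FPKM in progenitors. Flk1 and HE1 overlapped, while HE2 stood apart from HE1 and progenitors from HE2. The largest step was from HE1 to HE2, 13.8-fold (log2 difference 3.78 ± 0.24 SE, limma adjusted p = 1.08e-08).

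Gata1, by contrast, was on at a low level in Flk1 cells, at most 0.187 FPKM in HE1 and higher again in HE2. WT ESC were at 0.823 and 1.03 FPKM, Flk1 at 2.46 and 3.10, HE1 at 0.187 and 0, HE2 at 6.30 and 2.01 and progenitors at 69.9 and 45.9. Both HE1 samples lay below every other WT sample, and both progenitor samples far above. Gata1 fell by 4.08 on the log2 scale from Flk1 to HE1 (SE 0.83, limma adjusted p = 0.000392), rose by 4.44 from HE1 to HE2 (SE 0.83, limma adjusted p = 0.000921) and by 3.95 from HE2 to progenitors (SE 0.83, limma adjusted p = 0.0028). Fold changes here are on the log2(FPKM + 0.1) scale, so those that start from HE1 depend on the 0.1 added.

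Epor rose at the first and at the last step. WT samples were at 1.13 and 0.550 FPKM as ESC, 3.39 and 2.98 as Flk1 cells and 1.12 and 2.83 as HE1. HE2 samples were at 3.34 and 2.41 FPKM, and progenitors at 24.7 and 16.8. Samples of Flk1, HE1 and HE2 overlapped, and only the progenitor samples stood apart from the rest. From ESC to Flk1 Epor rose 3.66-fold (log2 difference 1.87 ± 0.40 SE, limma adjusted p = 0.000674). From HE2 to progenitors it rose 6.98-fold (log2 difference 2.80 ± 0.40 SE, limma adjusted p = 8.09e-05).

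Slc4a1 was the last and lowest of the genes. It was listed at 0 in both WT Flk1 samples and at 0.0526 FPKM or less in ESC and HE1, at 1.09 and 0.364 FPKM in HE2 and at 10.5 and 2.45 FPKM in progenitors. The 2 replicates differed by 4.28-fold in progenitors, although both were above both HE2 samples. Both late steps passed the test (HE1 to HE2, log2 difference 2.34 ± 0.59 SE, limma adjusted p = 0.00866, and HE2 to progenitors, 2.81 ± 0.59, adjusted p = 0.00296). With 1 FPKM added instead of 0.1 the first did not pass (adjusted p = 0.247). The first was also lost without WT replicate 1 of HE1 (2.29, adjusted p = 0.0517) or of HE2 (1.66, 0.125), and the second without WT replicate 2 of HE2 (2.13, 0.057) or replicate 1 of progenitors (1.78, 0.0888).

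**Figure D1:**
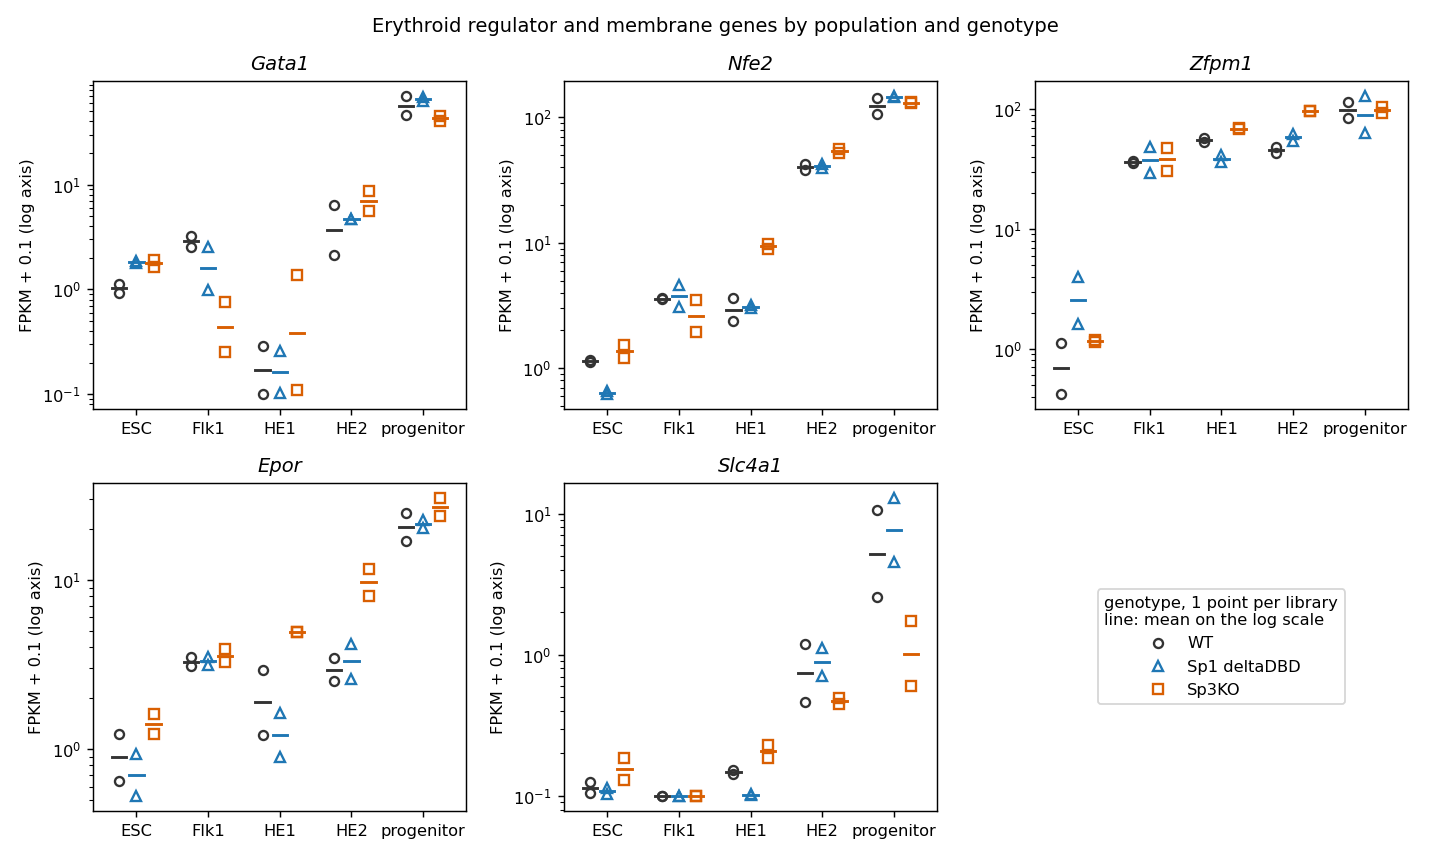
Level of each gene (FPKM + 0.1, log axis) in the 5 populations, with 1 point per library, colour and shape for the genotype and a line for the mean on the log scale of 2 replicates. Zfpm1 is high from Flk1 cells on, Gata1 dips in HE1, and Slc4a1 reaches 10.5 FPKM in a WT progenitor sample but at most 1.63 FPKM in the Sp3KO progenitor samples.

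Counted over the genes, 3 of 5 changed from ESC to Flk1 in WT cells, all higher (Nfe2, Zfpm1 and Epor), where 52.2% of all genes tested changed in either direction. From Flk1 to HE1, 1 of 5 changed (Gata1, lower, against 53% of all genes). From HE1 to HE2, 3 of 5 changed, all higher (Gata1, Nfe2 and Slc4a1, against 21.9%), and from HE2 to progenitors 4 of 5 changed, all higher (all but Zfpm1, against 13.2%). In Sp1_deltaDBD cells the counts of changed genes were 3, all higher, from ESC to Flk1 (48.6% of all genes changed), 2, both lower, from Flk1 to HE1 (46.1%), 4, all higher, from HE1 to HE2 (20%) and 4, all higher, from HE2 to progenitors (15.8%). The extra calls against WT were both of Epor, which fell from 3.06 and 3.42 FPKM in Flk1 to 0.796 and 1.52 in HE1 (log2 difference -1.47 ± 0.40 SE, limma adjusted p = 0.00574) and then rose to 4.08 and 2.51 in HE2 (1.45 ± 0.40, adjusted p = 0.016). The fall was lost without replicate 1 of HE1 (-1.04, adjusted p = 0.0934) and the rise without replicate 1 of HE1 (1.02, 0.169) or of HE2 (1.11, 0.12).

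In Sp3KO cells all genes that changed were higher at the later population. They were 3 of 5 from ESC to Flk1 (48.8% of all genes changed), 1 from Flk1 to HE1 (Nfe2, 44%), 2 from HE1 to HE2 (Gata1 and Nfe2, 14.4%) and 2 from HE2 to progenitors (Nfe2 and Epor, 8.77%). Slc4a1 passed neither late step there. It went from 0.0866 and 0.131 FPKM in HE1 to 0.348 and 0.397 in HE2 (log2 difference 1.19 ± 0.59 SE, limma adjusted p = 0.205) and to 0.498 and 1.63 in progenitors (1.11 ± 0.59, adjusted p = 0.308). All 4 later samples lay above both HE1 samples, but neither step passed. Gata1 went from 8.60 and 5.47 FPKM in HE2 to 40.1 and 45.2 in progenitors, and this step narrowly missed the threshold (2.62 ± 0.83, adjusted p = 0.0567). Of the calls, that of Nfe2 from ESC to Flk1 was lost without replicate 1 of Flk1 (0.51, adjusted p = 0.104), that of Epor from ESC to Flk1 without replicate 1 of ESC (1.14, 0.0815) or of Flk1 (1.22, 0.065) and that of Gata1 from HE1 to HE2 without replicate 2 of HE1 (2.36, 0.0601). Epor from HE2 to progenitors was lost without replicate 2 of HE2 (1.22, 0.235) or either progenitor sample (1.66, 0.0729 and 1.3, 0.154).

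**Figure D2:**
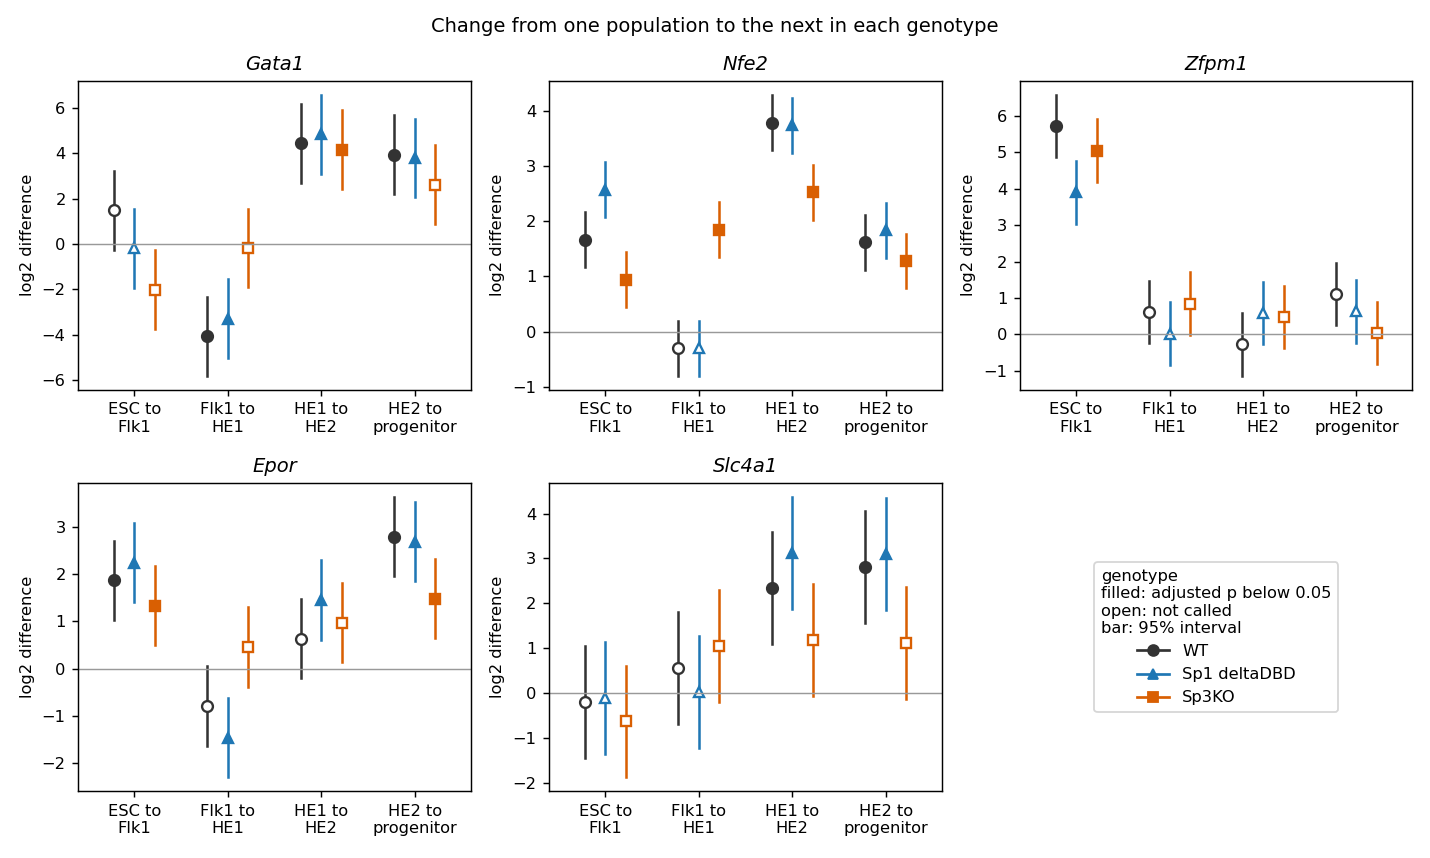
Log2 difference of each gene between successive populations in WT, Sp1_deltaDBD and Sp3KO cells, with 95% intervals from limma and filled symbols where the adjusted p was below 0.05. Nfe2 rises from Flk1 to HE1 in Sp3KO cells only by this call (1.84 on the log2 scale), and the late steps of Slc4a1 are open symbols in Sp3KO cells.

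Whether a step differed between a mutant and WT was tested directly. Of 20 such differences per mutant, none passed for Sp1_deltaDBD and 1 passed for Sp3KO, that of Nfe2 from Flk1 to HE1. Nfe2 went from 3.42 and 1.85 FPKM in Sp3KO Flk1 cells to 9.76 and 8.84 in HE1, against 3.50 and 3.47 to 2.26 and 3.51 in WT. The Sp3KO samples rose together while the WT samples stayed level, and the steps differed by 2.14 ± 0.34 SE on the log2 scale (limma adjusted p = 0.00211, 4.02% of all genes called for this difference). Gata1 in the same interval went from 0.153 and 0.657 to 1.26 and 0.0096 FPKM, with HE1 replicates on either side of the Flk1 samples, and its difference from the WT step did not pass (3.90 ± 1.17, adjusted p = 0.0669). It passed without replicate 2 of Sp3KO HE1 (5.71, adjusted p = 0.00792). The Epor steps from Flk1 to HE1 (1.26 ± 0.57, adjusted p = 0.238) and from HE2 to progenitors (-1.32 ± 0.57, adjusted p = 0.769) also missed the threshold, as did the Slc4a1 step from HE2 to progenitors (-1.70 ± 0.84, adjusted p = 0.878). For the other steps of Sp3KO none of 5 genes passed by limma, with unadjusted p below 0.05 for 2, 1 and 1 genes in order of the series and 1.48%, 0% and 0.0275% of all genes called. For Sp1_deltaDBD the 4 steps gave 0 of 5 each, with unadjusted p below 0.05 for 2, 0, 0 and 0 genes and 1.74%, 1.53%, 0.00688% and 0.0207% of all genes called.

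The 5 genes gave no call between Sp1_deltaDBD and WT in the populations after ESC. None of 5 passed the test in Flk1, HE1, HE2 or progenitor cells by limma, and none had an unadjusted p below 0.05, where 5.54%, 10%, 9.67% and 8.78% of all genes were called. In progenitors Gata1 was at 68.1 and 62.6 FPKM in Sp1_deltaDBD against 69.9 and 45.9 in WT (log2 difference 0.20, 95% interval -1.53 to 1.94), an interval that reaches past 2-fold in both directions. Nfe2 was at 145 and 148 FPKM against 107 and 142 in WT, with a narrower interval (0.25, -0.25 to 0.74). Zfpm1 was at 62.7 and 129 FPKM, Epor at 22.5 and 20.1 and Slc4a1 at 12.9 and 4.43, and in each of these 3 the range of the mutant samples overlapped that of WT. In Flk1 cells Gata1 was at 0.896 and 2.45 FPKM against 2.46 and 3.10 in WT (-0.85 ± 0.83 SE, adjusted p = 0.681). In HE1 Epor was at 0.796 and 1.52 against 1.12 and 2.83 (-0.65 ± 0.40, adjusted p = 0.358).

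In ESC 2 of 5 genes differed between Sp1_deltaDBD and WT, beside 6.06% of all genes. Both are expressed there at a few FPKM at most. Nfe2 was at 0.559 and 0.519 FPKM against 1.05 and 1.01 in WT, both mutant samples below both WT samples (log2 difference -0.83 ± 0.24 SE, limma adjusted p = 0.0442). Zfpm1 was at 3.91 and 1.5 FPKM against 1.03 and 0.318 in WT, again without overlap but with wide replicates (1.88 ± 0.41, adjusted p = 0.00868). Of these calls, that of Nfe2 was lost without any 1 of the 4 samples (-0.78 to -0.87, adjusted p 0.133 to 0.158), and that of Zfpm1 without WT replicate 2 (1.17, 0.18) or Sp1_deltaDBD replicate 1 (1.22, 0.162). Correcting for the GC content and length of genes ended both calls (-0.77 and 1.29, adjusted p = 0.0681 and 0.0765).

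In Sp3KO cells Nfe2 was higher in HE1, Epor was higher in HE1 and HE2, Gata1 was lower in Flk1 cells and Slc4a1 was lower in progenitors. The WT samples are the same as those set against Sp1_deltaDBD. In ESC none of 5 genes passed by limma or had an unadjusted p below 0.05 (11.3% of all genes called). Of the 5, 1 passed in Flk1 cells (12.6% of all genes), 2 passed in HE1 (10.9%), 1 passed in HE2 (13.8%) and 1 passed in the progenitor population (8.65%). With each population fitted alone, which leaves few residual degrees of freedom, none of these 5 calls passed, nor did the 2 of Sp1_deltaDBD in ESC (adjusted p 0.0757 to 0.278).

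Nfe2 was higher in Sp3KO HE1. It was at 9.76 and 8.84 FPKM against 2.26 and 3.51 in WT and 3.06 and 2.92 in Sp1_deltaDBD. Both Sp3KO samples lay above all 4 others, and the difference from WT was 3.22-fold (log2 1.69 ± 0.24 SE, limma adjusted p = 0.000265). It passed without each of the 4 samples in turn (1.38 to 1.99, highest adjusted p 0.00796). In HE2, Sp3KO samples were at 56 and 51.7 FPKM against 42.5 and 37.7 in WT, without overlap, but the difference did not pass (0.42 ± 0.24, adjusted p = 0.25).

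Epor was higher in both haemogenic endothelium populations of Sp3KO cells. In HE1 the Sp3KO samples were at 4.82 and 4.81 FPKM against 1.12 and 2.83 in WT, a 2.60-fold difference (log2 1.38 ± 0.40 SE, limma adjusted p = 0.0331). In HE2 they were at 11.5 and 7.95 FPKM against 3.34 and 2.41, a 3.29-fold difference (1.72 ± 0.40, adjusted p = 0.00899). No Sp3KO sample overlapped WT or Sp1_deltaDBD in either population, and the HE2 level of Sp3KO was still below all 6 progenitor samples. The HE1 call was lost without WT replicate 1 (0.74, adjusted p = 0.392) or either Sp3KO sample (1.38, 0.129 and 0.157), and the HE2 call without WT replicate 2 (1.49, 0.0559) or Sp3KO replicate 1 (1.45, 0.083). In progenitors Epor was at 23.7 and 30.5 FPKM in Sp3KO against 24.7 and 16.8 in WT, which overlapped (0.40 ± 0.40, adjusted p = 0.622).

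Zfpm1 was at 95.9 and 95.6 FPKM in Sp3KO HE2, close to its level in progenitors, against 43 and 48.3 in WT HE2. The samples did not overlap, but the difference (1.07 ± 0.41 SE on the log2 scale) did not pass (limma adjusted p = 0.0874). It passed with 1 FPKM added instead of 0.1 (1.05, adjusted p = 0.0299) and did not once the GC content and length of genes were corrected for (-0.023, adjusted p = 0.981). The exons of Zfpm1 hold 66.8% G and C, the most among the 5 genes.

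Beside these values, the summed level of erythroid markers in Sp3KO HE1 and HE2 was within the range of WT. In HE1 the 8 erythroid markers in the table summed to 94.1 and 96.5 FPKM in Sp3KO, within the WT range of 44.2 to 105, and 4 of 8 were above 1 FPKM in each of these samples. In Sp1_deltaDBD the same sum was 22.2 and 12.1 FPKM in HE1, below both WT samples, and 588 and 413 in HE2, which overlapped WT. The part of the low HE1 sum in the differences between the mutants was not tested. In HE2 the 8 erythroid markers summed to 503 and 821 FPKM in Sp3KO, within the WT range of 488 to 987. Of the 8, 7 were above 1 FPKM in each Sp3KO sample against 4 to 6 in WT and 7 in Sp1_deltaDBD. The 11 megakaryocyte markers summed to 98.2 and 95.3 FPKM in Sp3KO HE1 against 47.5 and 63.2 in WT. Itga2b, the gene of the sort marker CD41, was at 83.3 and 81.8 FPKM against 34.8 and 49.2, nearly all of that difference. In HE2 the 11 markers summed to 230 and 212 FPKM against 217 and 309. The part of megakaryocyte cells in the higher Nfe2 and Epor of HE1 was not tested.

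Gata1 was lower in Sp3KO Flk1 cells. It was at 0.153 and 0.657 FPKM against 2.46 and 3.10 in WT and 0.896 and 2.45 in Sp1_deltaDBD. Both Sp3KO samples lay below all 4 others, and the difference from WT was 6.54-fold (log2 -2.71 ± 0.83 SE, limma adjusted p = 0.0381). The call was lost without WT replicate 1 (-2.87, adjusted p = 0.113), WT replicate 2 (-2.55, 0.217) or Sp3KO replicate 1 (-1.92, 0.332). Beside it, 6 pluripotency markers summed to 206 and 195 FPKM in Sp3KO Flk1 cells against 58.1 and 47 in WT. Of the 6, 5 were above 1 FPKM in both Sp3KO samples and 5 to 6 in the WT samples. The 8 erythroid markers summed to 4.80 and 4.77 FPKM against 7.43 and 10.3. The part of either marker set in the lower Gata1 was not tested. Gata1 did not pass in the other 4 populations of Sp3KO. In progenitors it was at 40.1 and 45.2 FPKM, just below both WT samples (-0.41 ± 0.83, adjusted p = 0.828).

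Slc4a1 was lower in Sp3KO progenitors. It was at 0.498 and 1.63 FPKM against 10.5 and 2.45 in WT and 12.9 and 4.43 in Sp1_deltaDBD. Both Sp3KO samples lay below all 4 others, and the difference from WT was 5.11-fold (log2 -2.35 ± 0.59 SE, limma adjusted p = 0.0187). The call was lost without WT replicate 1 (-1.33, adjusted p = 0.249) or Sp3KO replicate 1 (-1.59, 0.247). The median of the 1192 genes tested on chromosome 11, where Slc4a1 lies, was itself 0.27 lower in Sp3KO progenitors (0.34 lower in Sp1_deltaDBD), and with that median taken off the difference still passed (-2.09, adjusted p = 0.0389).

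Erythroid markers were also lower in the Sp3KO progenitor samples by summed level. The 8 markers, with embryonic globins the largest part, summed to 13679 and 4539 FPKM in WT, 9787 and 7315 in Sp1_deltaDBD and 1550 and 3510 in Sp3KO, and all 8 were above 1 FPKM in each of the 6 samples. The Sp3KO samples were below both WT samples in this sum, which the globins dominate, and of the 8 markers 0 were called higher and 1 lower against WT (8.65% of all genes called). Hbb-bh1, an embryonic beta-like globin, was at 1111 and 2128 FPKM in Sp3KO against 10321 and 2745 in WT. Other markers overlapped WT. Klf1 was at 19 and 24.2 FPKM in Sp3KO against 43.5 and 12.1, Alas2 at 27.8 and 47 against 55 and 35.5, and Trim10 at 3.70 and 8.60 against 8.17 and 4.62. Gata1, Zfpm1, Nfe2 and Epor did not pass against WT in the same samples. The part of the erythroid share of the cells in the lower Slc4a1 was not tested.

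**Figure D3:**
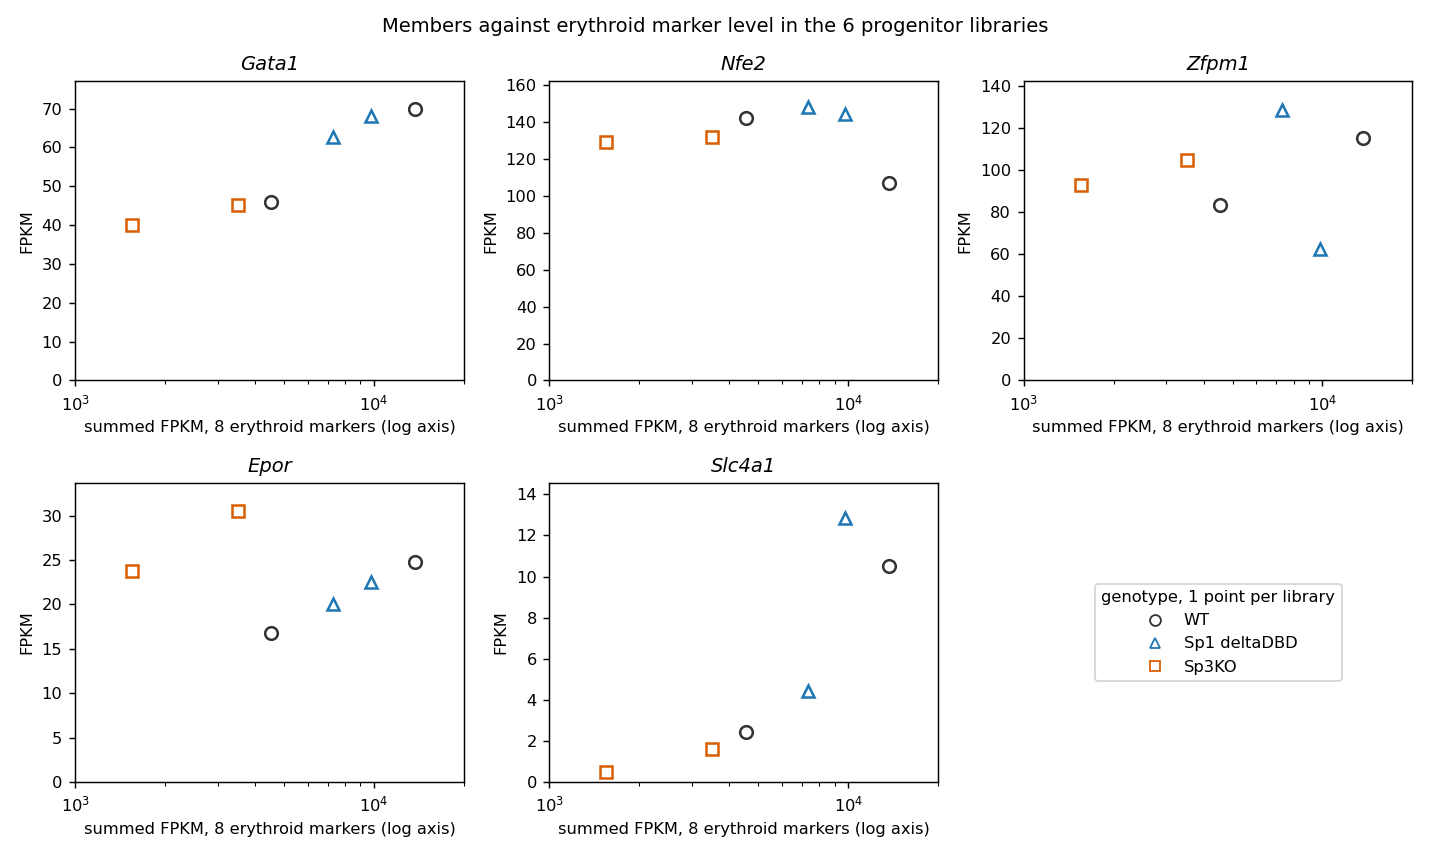
FPKM of each gene against the summed FPKM of 8 erythroid markers (log axis) in the 6 progenitor libraries, 1 point per library. Slc4a1 goes from 0.498 FPKM in the Sp3KO sample with the lowest marker sum (1550 FPKM) to 10.5 and 12.9 FPKM in the 2 samples with the highest, while Nfe2 stays between 107 and 148 FPKM.

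**Figure D4:**
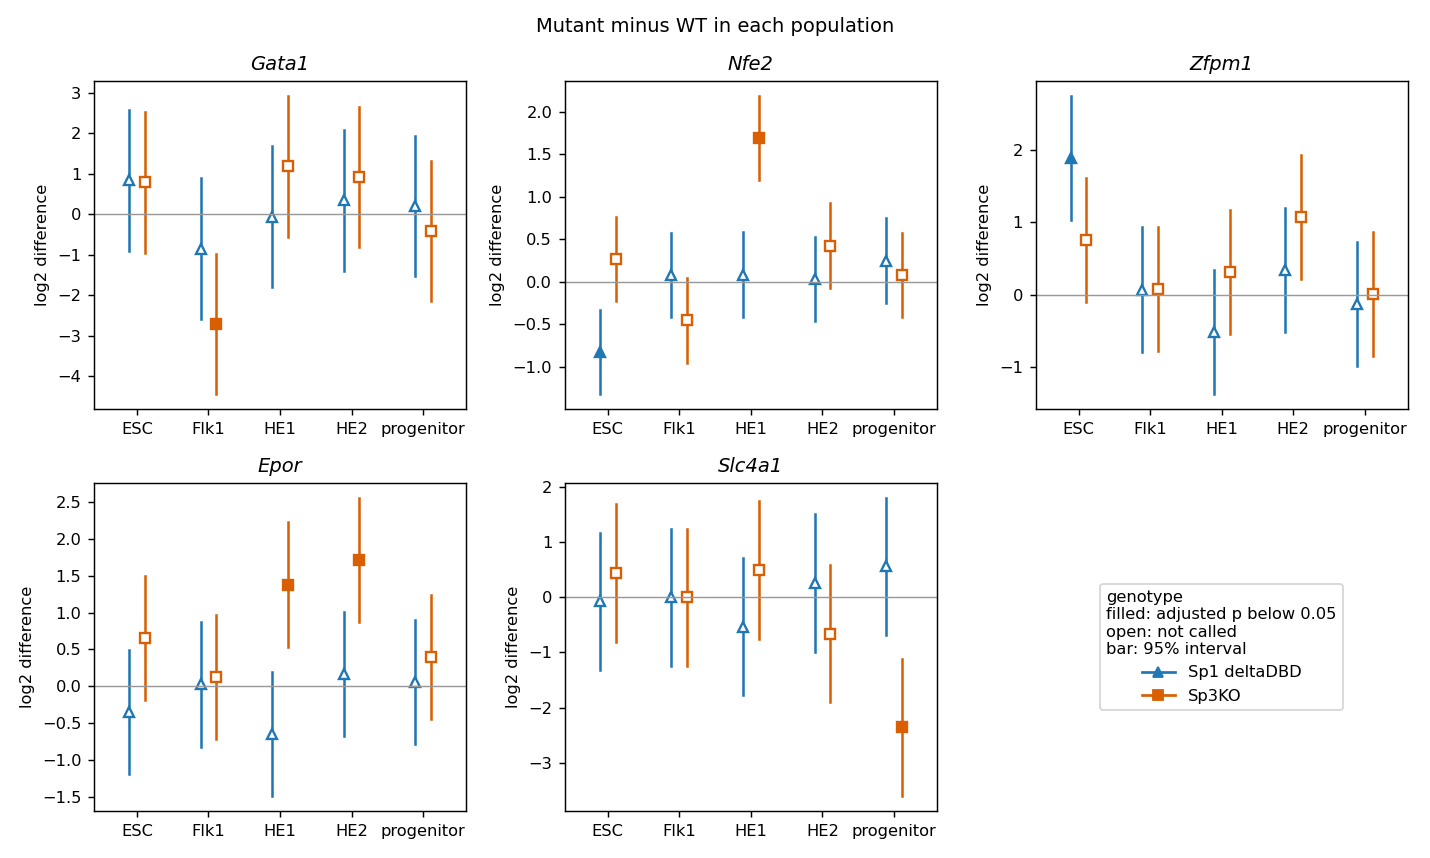
Log2 difference of each mutant from WT in the 5 populations, with 95% intervals from limma and filled symbols where the adjusted p was below 0.05. Both mutants share the WT samples. The filled symbols are 2 in Sp1_deltaDBD (both ESC) and 5 in Sp3KO (Gata1 in Flk1, Nfe2 in HE1, Epor in HE1 and HE2, Slc4a1 in progenitors).

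The mutants were also set against each other, without the WT samples. Nfe2 in ESC was higher in Sp3KO, at 1.11 and 1.43 FPKM against 0.559 and 0.519 (log2 difference 1.09 ± 0.24 SE, limma adjusted p = 0.00652, 1 of 5 genes beside 9.67% of all genes), and this was lost without Sp3KO replicate 2 (0.93, 0.09). None of 5 passed in Flk1 by limma, with unadjusted p below 0.05 for 2 and 7.39% of all genes called, and Gata1 there differed by -1.86 ± 0.83 (adjusted p = 0.198). In HE1, Nfe2 (1.6 ± 0.24, adjusted p = 0.000206) and Epor (2.03 ± 0.40, adjusted p = 0.00253) were higher in Sp3KO, 2 of 5 beside 13.6%, and both passed without each of the 4 samples in turn. In HE2, Epor was higher (1.55 ± 0.40, adjusted p = 0.0132, 1 of 5 beside 15.9%), a call lost without Sp1_deltaDBD replicate 2 (1.21, 0.149) or Sp3KO replicate 1 (1.29, 0.109). In progenitors, Slc4a1 was 7.53-fold lower in Sp3KO (-2.91 ± 0.59, adjusted p = 0.00355, 1 of 5 beside 11.6%), a call lost without replicate 1 of Sp1_deltaDBD (-2.15, 0.0621) or of Sp3KO (-2.14, 0.0733). Zfpm1 in ESC, lower in Sp3KO by 1.13 ± 0.41 on the log2 scale, did not pass (adjusted p = 0.0894) but passed without Sp1_deltaDBD replicate 2 (-1.79, 0.0206) and after correcting for GC content and length (-2.03, 0.00478).

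Ordered over the 15 groups, Gata1, Nfe2, Epor and Slc4a1 had the 3 progenitor groups at the top. For Gata1 the means were 65.3 ± 3.9 FPKM (SD, n = 2) in Sp1_deltaDBD, 57.9 ± 17 in WT and 42.7 ± 3.6 in Sp3KO, of which the first 2 overlapped, and the next group, Sp3KO HE2, was at 7.03 ± 2.2 FPKM. Nfe2 fell from 146 ± 2.5 FPKM in Sp1_deltaDBD progenitors through 131 ± 1.8 in Sp3KO and 125 ± 25 in WT, which overlapped, to 53.8 ± 3.0 in Sp3KO HE2, which stood above the HE2 samples of the other genotypes (41 ± 2.0 and 40.1 ± 3.4). For Epor the Sp3KO progenitors were highest (27.1 ± 4.8 FPKM) and Sp3KO HE2 (9.72 ± 2.5) and HE1 (4.81) came next below the progenitors of the other genotypes, each apart from its neighbours, above all Flk1 groups. The other 10 groups of Epor, from 3.48 ± 0.43 down to 0.629 ± 0.28 FPKM, each overlapped the next in order. Zfpm1 was the exception, with Sp3KO HE2 (95.8 ± 0.22 FPKM) among the progenitor groups (99.4 ± 23, 98.8 ± 8.4 and 95.7 ± 47) and each of these groups overlapped the next. Slc4a1 ran from 8.65 ± 6.0 FPKM in Sp1_deltaDBD and 6.48 ± 5.7 in WT progenitors to 1.07 ± 0.80 in Sp3KO progenitors, which overlapped the HE2 group of Sp1_deltaDBD (0.813 ± 0.29).

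Across the 15 group means on the log2 scale, Nfe2 was most like Epor (Pearson r = 0.90) and Slc4a1 (0.90) among the other members, and Gata1 and Zfpm1 were the least alike (0.30). The groups share populations and libraries, so these values describe the series and have no test. Among 12011 other genes, Gata1 was closest to Gnaz (r = 0.98), which encodes a G protein subunit, and to the transporter gene Slc16a10 (0.97) and Klf1 (0.96), the erythroid zinc finger factor. Nfe2 was closest to Mfsd2b (0.99), which encodes a sphingosine 1-phosphate exporter of red cells and platelets, F630111L10Rik (0.99) and Enpp1 (0.98). Zfpm1 was closest to Zfp768 (0.99), Tal1 (0.99), which encodes a core haematopoietic factor, and Zeb2os (0.98). Epor was closest to Alas2 (0.98), the erythroid enzyme of the first step of haem synthesis, Glrx5 (0.96), which serves iron-sulfur cluster assembly, and Slc30a10 (0.95). Slc4a1 was closest to Hemgn (0.98), an erythroid nuclear protein gene, Treml1 (0.98), a platelet receptor gene, and Btk (0.97).

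Of 20 transcription factor genes that work with GATA1 or in the erythroid line, calls were found in most comparisons of a mutant with WT, ESC and Flk1 cells included. In Sp3KO, 6 were higher in ESC (beside 11.3% of all genes called) and 2 in Flk1 (12.6%), and in Sp1_deltaDBD 3 were higher in ESC (6.06%) and 2 in Flk1 (5.54%), with 0 lower in each. In the blast culture populations of Sp1_deltaDBD, 1 of 20 was higher in HE1 (Lmo2, the LIM bridge of the TAL1 complex), beside 10% of all genes called. In HE2 0 passed by limma (unadjusted p below 0.05 for 2 genes, 9.67% of all genes called). In progenitors 1 of 20 was lower (Mafg, a small MAF partner of NF-E2), beside 8.78% of all genes. Lmo2 was at 44.9 and 41.1 FPKM against 19.1 and 26 in WT (log2 difference 0.94 ± 0.21 SE, adjusted p = 0.00837), and Mafg at 15.7 and 20.5 against 26.8 and 30.9 (-0.67 ± 0.16, adjusted p = 0.0111). Neither pair of groups overlapped. In Sp3KO HE1, 3 of 20 were higher and 0 lower, beside 10.9% of all genes called in either direction. Gfi1b, a repressor needed in red cells and megakaryocytes, was at 4.73 and 5.24 FPKM against 0.756 and 0.900 (2.46 ± 0.38, adjusted p = 0.000518). Myb, a factor of definitive progenitors, was at 8.38 and 5.65 against 1.32 and 0.852 (2.59 ± 0.41, adjusted p = 0.000694), and Lyl1, a relative of TAL1, at 30 and 35 against 9.31 and 14.9 (1.46 ± 0.33, adjusted p = 0.00838). In each, both Sp3KO samples lay above both WT samples, as for Nfe2 and Epor in these libraries. The median difference of the 20 genes was 0.28 there against 0.05 over all genes tested.

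In Sp3KO HE2, 5 of 20 were higher and 0 lower, beside 13.8% of all genes (Ldb1, Zbtb7a, Gata2, Tcf3 and Foxo3, named after their values were seen), with a median of 0.39 against 0.03 over all genes. In Sp3KO progenitors 1 of 20 was higher and 0 lower, beside 8.65% of all genes, Gata2, the factor that GATA1 replaces as red cells form, at 16.2 and 12.7 FPKM against 7.65 and 7.35 (0.93 ± 0.22, adjusted p = 0.0117). With each of the 4 samples of its comparison left out in turn, the calls of Gfi1b and Myb held, while that of Lmo2 was lost without WT replicate 1 (0.72, adjusted p = 0.124), of Lyl1 without WT replicate 1 (1.12, 0.109) or Sp3KO replicate 2 (1.35, 0.0861), of Mafg without WT replicate 2 (-0.57, 0.0889) or Sp1_deltaDBD replicate 1 (-0.48, 0.137), and of Gata2 without WT replicate 2 (0.90, 0.062) or Sp3KO replicate 1 (0.75, 0.14).

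Among 16 genes of EPO receptor signalling, 2 were higher and 3 lower in Sp3KO ESC (beside 11.3% of all genes called), 1 higher and 1 lower in Sp3KO Flk1 (12.6%), 0 higher and 2 lower in Sp1_deltaDBD ESC (6.06%), and 0 passed by limma in Sp1_deltaDBD Flk1 (5.54%, unadjusted p below 0.05 for 5 genes). The list includes Kit, which was used for the sort. Of the 16, 0 passed by limma in Sp3KO HE1 (unadjusted p below 0.05 for 2 genes, beside 10.9% of all genes called). In Sp3KO HE2 1 was higher and 2 lower (13.8%), and in Sp3KO progenitors 0 were higher and 1 lower (8.65%). In HE2, where Epor was higher, Socs1, a feedback inhibitor of the JAK kinases, was at 2.39 and 2.79 FPKM against 0.630 and 0.672 in WT (1.84 ± 0.51, adjusted p = 0.0232). Ptpn6, the phosphatase SHP-1 that dampens EPO signals, was lower at 9.21 and 6.29 against 14 and 19.2 (-1.10 ± 0.22, adjusted p = 0.00397), and the kinase gene Lyn lower at 24.1 and 25.6 against 42 and 42.7 (-0.76 ± 0.25, adjusted p = 0.0454). In Sp1_deltaDBD, 0 were higher and 1 lower in each of HE1, HE2 and progenitors (10%, 9.67% and 8.78% of all genes). Ptpn6 was at 6.28 and 5.79 FPKM in Sp1_deltaDBD HE2 (-1.43 ± 0.22, adjusted p = 0.000427), and Stat5a, the main EPO effector with its paralog Stat5b, was at 10.6 and 12.9 FPKM in progenitors against 25.5 and 20.5 in WT (-0.96 ± 0.25, adjusted p = 0.0207). None of these groups overlapped. The Socs1 and Lyn calls were lost without any 1 of their 4 samples (adjusted p 0.0629 to 0.131 and 0.118 to 0.175), the Sp3KO call of Ptpn6 without Sp3KO replicate 2 (-0.83, 0.0794), and that of Stat5a without WT replicate 1 (-0.80, 0.156) or Sp1_deltaDBD replicate 1 (-0.82, 0.14).

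Of 25 listed genes for the red cell membrane and skeleton, where band 3 sits, 24 were tested. In Sp3KO progenitors, where Slc4a1 was lower, 0 were higher and 1 lower, beside 8.65% of all genes called, with a median difference of -0.55 against 0.04 over all genes tested. In Sp3KO HE1, 2 were higher and 1 lower (10.9% of all genes), and in HE2 4 were higher and 2 lower (13.8%). None of the 24 passed in Sp3KO ESC by limma (unadjusted p below 0.05 for 1, beside 11.3% of all genes called), and 2 were lower in Flk1 (12.6%). Epb42, which encodes protein 4.2, a band 3 binding protein, was at 0.860 and 0.552 FPKM in Sp3KO HE1 against 0.168 and 0.188 in WT (1.51 ± 0.31, adjusted p = 0.00493) and at 0.697 and 0.945 in Sp1_deltaDBD HE1 (1.72 ± 0.31, adjusted p = 0.00154), all at levels under 1 FPKM. It was also called higher in HE2 of both mutants (2.52-fold in Sp1_deltaDBD, 2.15-fold in Sp3KO) and in Sp1_deltaDBD progenitors (2.37-fold). Sptb, beta spectrin, was at 3.44 and 3.91 FPKM in Sp3KO HE1 against 1.31 and 1.25 (1.45 ± 0.36, adjusted p = 0.0153). Cd47, the surface signal that protects red cells from uptake, was at 11.9 and 8.16 FPKM in Sp3KO HE2 and 12.1 and 10.6 in Sp1_deltaDBD HE2 against 16.9 and 22.1 in WT (-0.96 ± 0.23 and -0.76 ± 0.23, adjusted p = 0.00945 and 0.0393). Mpp1, which encodes the membrane protein p55, was at 9.63 and 11.8 FPKM in Sp3KO HE2 and 9.35 and 8.73 in Sp1_deltaDBD HE2 against 18 and 18.4 (-0.76 ± 0.19 and -1.0 ± 0.19, adjusted p = 0.013 and 0.00244). Cd47 was also called lower in Sp3KO HE1 and progenitors and higher in Sp1_deltaDBD ESC. Mpp1 was also called lower in Flk1 of both mutants and in Sp1_deltaDBD HE1 and progenitors. Both genes are also expressed outside the red cell line.

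In Sp1_deltaDBD cells 1 of 24 was higher in ESC (beside 6.06% of all genes called) and 1 lower in Flk1 (5.54%). In HE1 1 was higher and 1 lower (10% of all genes), and HE2 had 2 higher and 2 lower (9.67%). Progenitors had 2 higher and 1 lower (8.78%), with a median of 0.18 there against 0.05 over all genes. Rhag, the ammonia channel gene of the Rh complex that sits beside band 3, was at 5.53 and 3.97 FPKM in Sp1_deltaDBD progenitors against 1.43 and 1.89 in WT (1.45 ± 0.43, adjusted p = 0.0398), without overlap. Samples were left out in turn only for the calls given with FPKM values. Among these, the Sp1_deltaDBD calls of Epb42 in HE1 and Mpp1 in HE2 held with each sample left out. The calls of Rhag, of Sptb and of Cd47 in Sp1_deltaDBD were lost without any 1 of their 4 samples (adjusted p 0.0548 to 0.208, 0.0598 to 0.118 and 0.0521 to 0.234). Those in Sp3KO were lost without Sp3KO replicate 1 for Epb42 (1.23, 0.0667), without WT replicate 2 or Sp3KO replicate 2 for Cd47 (-0.77, 0.073 and -0.69, 0.141), and without replicate 1 of WT or of Sp3KO for Mpp1 (-0.78, 0.0761 and -0.62, 0.116).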

How the data were processed

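RNA sequencing of 30 samples (15 groups, 2 biological replicates each) was analysed. Per the methods of the study, the authors made stranded, ribosomal RNA-depleted paired-end libraries, aligned reads with HISAT2 (2.1.0) to mm10 and computed FPKM with StringTie (1.3.3). Genes were kept by their FPKM before normalisation, and the deposited FPKM values had then been quantile normalised across samples, after which 14525 of 14685 genes were above 1 FPKM in a sample. Every sample therefore has nearly the same distribution of values, a shift shared by most genes is removed, and read depth is unknown, so no counting interval is given.

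Samples were grouped by their titles. Values were tested as log2(FPKM + 0.1) with limma (3.58.1, R 4.3.3, empirical Bayes with intensity trend) with 15 group means over all 30 samples, for 14525 genes above 1 FPKM in at least 1 sample. P-values were two-sided and adjusted by Benjamini-Hochberg within each of 35 comparisons, 10 of mutants with WT, 12 of successive populations, 5 between mutants and 8 of mutant with WT steps, at a threshold of 0.05. Scripts were tested on simulated data. GC content, exon length and chromosome came from GENCODE annotation, to which 14370 of 14685 symbols matched. Likeness was ranked by Pearson correlation over the 15 group means. From each gene list, at most 4 called genes per mutant in HE1, HE2 and progenitors were named by smallest adjusted p. The 5 genes, the lists and the comparisons were chosen with earlier results of these data known. Alternatives were another pseudocount, other filters, no trend, replicate blocks, fits by population or genotype, corrections for chromosome and for GC content and length, a fold rule, and leaving out each replicate. 1 listed marker is not reported here by itself.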

Additional observations from a re-analysis of the deposited data

Results flagged for a closer look

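The step of Nfe2 from Flk1 to HE1 differed between Sp3KO and WT cells by 2.14 on the log2 scale, a difference tested directly (SE 0.34, limma adjusted p = 0.00211). Both Sp3KO HE1 samples lay above both Sp3KO Flk1 samples, whereas the WT samples of the 2 populations overlapped. With each of the 8 samples left out in turn the difference was 1.71 to 2.57 and passed each time (highest adjusted p 0.0186).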

How the results depend on the processing

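Over the 64 results on the 5 genes, no filter, a group mean above 3 FPKM and subtracting the chromosome median changed no call. Of 2 Sp1_deltaDBD calls against WT, 1 was left with 1 FPKM added, without the intensity trend, with the replicate block or with a 2-fold rule and no test, and 0 were left after correction for GC content and length or with populations fitted alone. Fitted alone, the 5 Sp3KO calls against WT became 0, and between mutants none of the 5 calls passed while 1 other did (Zfpm1 in HE1, 0.83, adjusted p 0.0381 against 0.197). By the 2-fold rule and no test, the 5 Sp3KO calls against WT became 7. Those added were Zfpm1 in HE2 and Gata1 in HE1, the latter at 1.26 and 0.0096 FPKM against 0.187 and 0 in WT. Calls of a difference between Sp3KO and WT steps went from 1 to 2 with 1 FPKM added. The same pseudocount ended the HE1 to HE2 call of Slc4a1 in WT (adjusted p = 0.247) and Sp1_deltaDBD (0.155). Correction for GC content and length reversed Zfpm1 in Sp3KO HE2 (-0.023), left Epor of Sp3KO in HE1 against WT short of a call (1.25, adjusted p = 0.0533) and ended its call in HE2 against Sp1_deltaDBD (1.11, 0.102). It brought a call for Zfpm1 in ESC between mutants (-2.03, 0.00478). The cause was not tested.

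Leaving out 1 replicate at a time gave 0 to 2 calls for Sp1_deltaDBD, 4 to 6 for Sp3KO and 4 to 6 between mutants. Steps gave 10 to 12 in WT, 11 to 13 in Sp1_deltaDBD and 6 to 11 in Sp3KO, and step differences 0 to 1 for Sp1_deltaDBD and 1 to 3 for Sp3KO. Gata1 in Sp1_deltaDBD progenitors ranged from -0.10 to 0.51 and turned negative without WT replicate 2.

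Replicate numbers were shared across genotypes, but same-numbered deviations correlated at 0.213 to 0.515 for WT with Sp1_deltaDBD and at 0.0304 to 0.212 for WT with Sp3KO, and with 2 replicates and no label of a shared culture they were not taken as pairs. With the replicate block, Nfe2 in Sp1_deltaDBD ESC lost its call (adjusted p = 0.0739), and 3 results gained one: Zfpm1 in Sp3KO HE2 against WT (1.07, 0.0339), and Zfpm1 in ESC (-1.13, 0.0345) and Gata1 in Flk1 (-1.86, 0.028) between mutants. Blast culture populations of 1 genotype also deviated together (0.0454 to 0.681), so samples are not fully independent, and how this bears on the p-values was not tested. The block within genotype changed no call of the 41 steps and step differences. Of 19 calls given with FPKM values from the lists, all were lost with populations fitted alone, 7 with the GC content and length correction and 3 with the chromosome median subtracted (Mafg, Stat5a and Rhag).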
